A study of Saccharomyces cerevisiae with 6 samples.

Results

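The 4 genes described here, YDR261W-B, YBL100W-B, YDR034C-D and YMR051C, are reading frames of Ty elements, the retrotransposons of budding yeast. They were chosen by name after an earlier look at these arrays had shown them to be higher in ethanol, and each was found through the gene name that the platform annotation gives to its probe. They make up 4 of the 67 Ty reading frames on the array and 4 of 6345 features in all, each with a single probe.

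A Ty element is a stretch of DNA between long terminal repeats. It is transcribed from the left repeat by RNA polymerase II, and the RNA serves both as mRNA and as the template that reverse transcriptase copies into DNA for insertion elsewhere in the genome. The mRNA carries the Gag frame, which codes for the coat of a virus-like particle, followed by the Pol frame, which codes for protease, integrase and reverse transcriptase with RNase H. In Ty1 and Ty2 the Pol part is made as a Gag-Pol fusion when ribosomes slip out of the Gag frame. Ty1 and the closely related Ty2 are the most numerous families, and their mRNA is abundant in haploid cells. Ty3, Ty4 and Ty5 are rarer families.

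YDR261W-B, YBL100W-B and YDR034C-D are Ty2 Gag-Pol frames, each 5314 bp long in the RefSeq annotation of assembly R64, and YMR051C is a Ty1 Gag frame of 1323 bp. The family was assigned from these lengths, which differ between Ty1 and Ty2. YMR051C lies within YMR050C, the Gag-Pol frame of the same Ty1 element, and in the same way YDR261W-B begins with YDR261W-A and YBL100W-B with YBL100W-A. When other Ty frames are left out, a tRNA gene is the immediate neighbour of all 4 members in that annotation, and Ty1 is known to insert upstream of genes read by RNA polymerase III. Copies of a family are nearly identical in sequence, so a probe for one copy can bind RNA of other copies. Values of different Ty probes are therefore not independent measurements of different loci. The probes are named by loci of strain S288C, and Ty insertion sites differ between laboratory strains.

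The study compared 3 cultures in 6.5% (v/v) ethanol with 3 cultures in 0% ethanol, on 2-colour arrays with 1 array per culture. All were separate cultures of W303-1A, a haploid MATa laboratory strain with the auxotrophic alleles leu2-3, 122 and his3-11, 15, trp1-1, ura 3-1 and ade2-1 and the resistance allele can1-100. They were started from an unstressed culture in late exponential phase and grown in rich YEPD medium with glucose at 30 °C. Each culture was hybridised against 1 pool of RNA from the 0% cultures, with the dyes exchanged on the array of culture 1 in both groups. Time in ethanol is not given in the sources used here. All values below are log2 ratios with the culture on top of the pool, and a change is the 6.5% minus the 0% cultures from a limma fit with dye orientation as a term (n = 3 arrays per group). The sources do not state which dye is on top of the deposited ratios. Red was taken to be, the usual and likely order, and the opposite reading would turn every sign below. Arrays were centred near 0, so a change is relative to the bulk of the features, and a ratio to a pool gives no level, so markers of cell type could not be checked. Across all probes the array of 6.5% culture 1 agreed little with the other 6.5% arrays (r = -0.06 with culture 2 and -0.10 with culture 3, against 0.85 between cultures 2 and 3). With the other swapped array, that of 0% culture 1, its r was 0.42, and with 0% cultures 2 and 3 it was -0.62 each. At a limma adjusted p below 0.05 the dye term was called in 2155 of 6345 features, against 1150 for ethanol. Dye orientation and culture number 1 cannot be told apart here.

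All 4 members read far higher on the 6.5% arrays than on the 0% arrays. Because this contrast chose them, their changes are given as a description without a test. YDR261W-B had log2 ratios of 2.85, 3.20 and 2.89 in 6.5% cultures 1, 2 and 3, against 0.23, -1.16 and 0.72 in 0% cultures 1, 2 and 3. YBL100W-B had 2.89, 2.43 and 2.95 in the 6.5% cultures, against -0.14, -0.43 and 0.03 in the 0% cultures. The lowest 6.5% array lay above the highest 0% array by 2.13 log2 units for YDR261W-B and by 2.40 for YBL100W-B.

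YDR034C-D, the remaining Ty2 Gag-Pol frame, had 2.44, 2.70 and 3.18 in the 6.5% cultures, against -0.75, -0.50 and 0.79 in the 0% cultures. YMR051C, the Ty1 Gag frame, had 1.87, 1.97 and 2.18 in the 6.5% cultures, against 0.56, -1.17 and -0.04 in the 0% cultures. Neither gene's groups overlapped, with gaps of 1.65 for YDR034C-D and 1.32 for YMR051C. Over all features 11.3% had all 6.5% arrays above all 0% arrays, a share from which nothing is read for genes chosen on this contrast. The deposited ratios carry a trend along the probe number. With it removed, the lowest 6.5% and highest 0% arrays read 1.51 and 1.34 for YDR034C-D and 1.80 and 0.73 for YMR051C. They read 2.04 and 1.20 for YDR261W-B and 1.53 and 0.85 for YBL100W-B. The groups then still did not overlap, but all gaps were narrower.

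**Figure D1:**
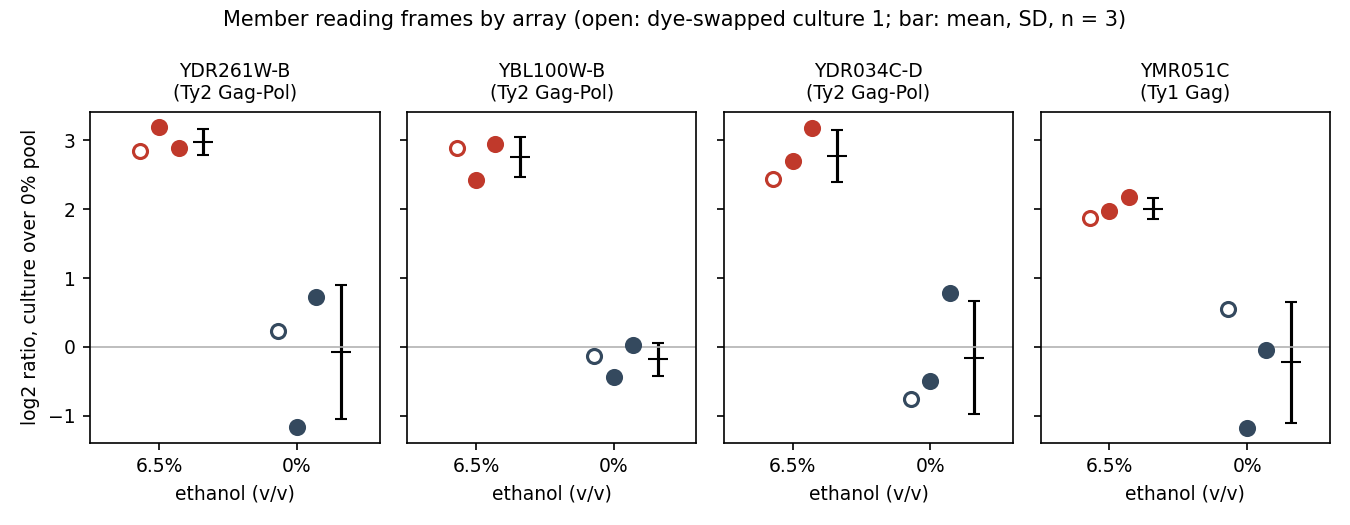
Log2 ratio of culture over the 0% pool (vertical axis) for each member, with the 3 cultures in 6.5% ethanol to the left of the 3 cultures in 0% ethanol. Open circles are the dye-swapped arrays of culture 1, and bars are the mean and SD (n = 3). The groups do not overlap for any member, and the 0% cultures spread more widely than the 6.5% cultures for every member but YBL100W-B.

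The fitted changes were 3.05 ± 0.49 (SE) for YDR261W-B, 2.94 ± 0.28 for YBL100W-B, 2.93 ± 0.39 for YDR034C-D and 2.23 ± 0.42 for YMR051C. These correspond to 8.30-fold, 7.66-fold, 7.60-fold and 4.69-fold higher levels in ethanol. By size of change the members ranked 13, 17, 18 and 60 from the top of the 6345 features. The list of members does not hold every Ty frame with so large a change. YLR035C-A (2.57), YOR343W-B (2.50), YGR161W-B (2.48) and YFL002W-A (2.30) lay between YDR034C-D and YMR051C.

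Over the 6 arrays the members lay near each other, and the 3 Ty2 frames nearest. These distances take in the change that chose the genes, so the likeness is a description only. On the 0% arrays alone the order of cultures differed, with culture 1 lowest for YDR034C-D and culture 2 lowest for the other members. YBL100W-B and YDR034C-D differed by a mean of 0.40 log2 units per array, YDR261W-B and YBL100W-B by 0.44, and YDR261W-B and YDR034C-D by 0.49. YMR051C lay 0.62 from YBL100W-B, 0.67 from YDR261W-B and 0.85 from YDR034C-D. The changes of the Ty2 frames were within 0.13 log2 units of each other, and that of YMR051C was smaller by 0.70 to 0.82.

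In the deposited ratios the 3 cultures in ethanol gave close readings. This is a description only, as these values are part of the contrast that chose the members. The range over the 6.5% arrays was 0.35 log2 units for YDR261W-B, 0.53 for YBL100W-B, 0.75 for YDR034C-D and 0.31 for YMR051C, against a median range of 1.04 over all features. The range over the 0% arrays was 1.88, 0.46, 1.54 and 1.73 in the same order of genes, against a median of 1.02. For 3 of the 4 members the 0% cultures thus spread more than the 6.5% cultures. In YDR261W-B and YMR051C the low value was that of 0% culture 2, and without this array their changes were 2.45 and 1.78.

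The values behind each change can also be given by dye. On the swapped arrays alone, 6.5% culture 1 minus 0% culture 1 was 2.63 for YDR261W-B, 3.03 for YBL100W-B, 3.19 for YDR034C-D and 1.32 for YMR051C. On the other arrays the mean difference was 3.26, 2.89, 2.79 and 2.68. These are parts of the contrast that chose the genes and are a description only.

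Many other Ty reading frames were also higher. Of 63 of them, 29 rose with ethanol and 0 fell in limma at an adjusted p below 0.05, against 7.69% of all features higher and 10.4% lower. At an unadjusted p below 0.05, 42 were higher and 0 lower, against 1064 and 1173 of all 6345 features. Their median change was 1.39, against 0.04 over all features. In 40 of the 63 all 6.5% arrays lay above all 0% arrays and in 0 below, against 11.3% and 14% of all features. These counts are of probes that can bind the same RNA. Without 6.5% culture 2 limma called 0 of the 63 higher, without 6.5% culture 3 it called 1 and without 0% culture 2 it called 10. Calls over all features fell too, to 2, 24 and 201 of 6345 features higher in those fits, against 488 with all arrays. The median change of the 63 frames was 1.27, 1.40 and 1.05 in the same fits. With the replicate number as a block 20 of the 63 rose, against 3.94% of all features. The deposited ratios also carry a trend along the probe number, and with it removed 20 of the 63 rose, 18 of them among the 29, against 5.66% of all features higher in that fit. The members' changes were then 2.72 for YDR261W-B, 2.49 for YBL100W-B, 2.56 for YDR034C-D and 2.46 for YMR051C.

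**Figure D2:**
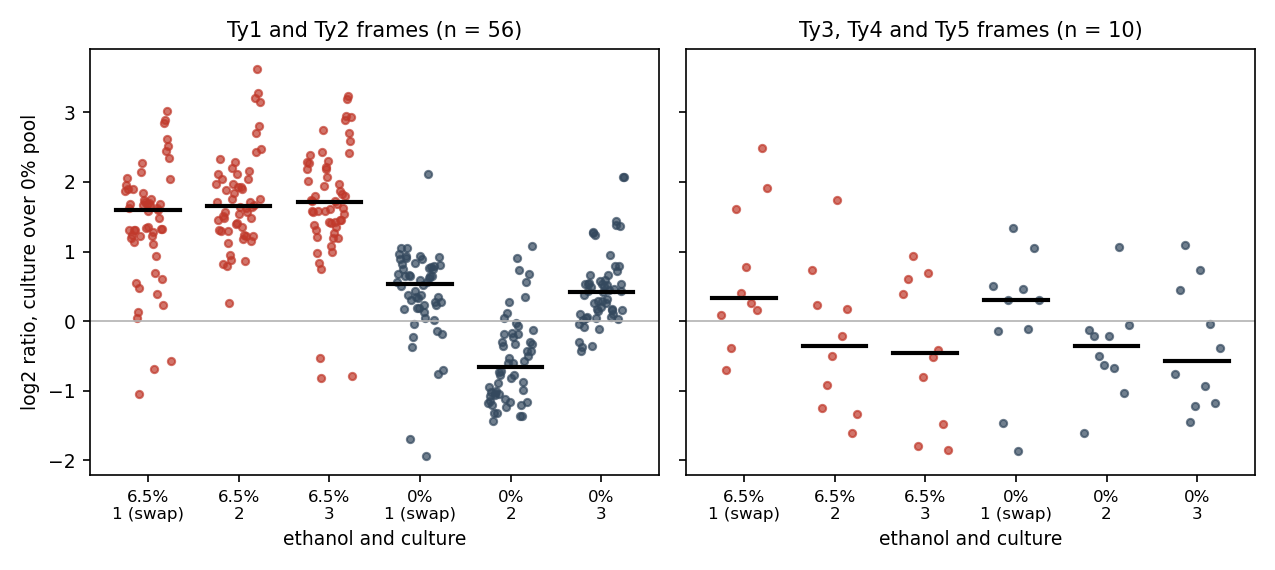
Log2 ratio of culture over the 0% pool (vertical axis) on each array for the 56 Ty1 and Ty2 frames, members included, and for the 10 Ty3, Ty4 and Ty5 frames. Points are frames and bars are medians. The Ty1 and Ty2 medians were 1.59, 1.66 and 1.71 in 6.5% cultures 1 to 3, against 0.54, -0.66 and 0.42 in 0% cultures 1 to 3.

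Of the 6 other Ty2 Gag-Pol frames, 5 rose, against 7.69% of all features higher. YOR343W-B had 3.01, 3.63 and 3.24 in the 6.5% cultures, against 0.34, 0.67 and 1.37 in the 0% cultures, and rose by 2.50 ± 0.30 (limma adjusted p = 0.00743). YGR161W-B rose by 2.48 ± 0.39, YFL002W-A by 2.30 ± 0.35, YCL019W by 2.19 ± 0.32 and YLR410W-B by 1.72 ± 0.35, with limma adjusted p-values between 0.00940 and 0.0221. All 5 were also called with the probe trend removed and under the replicate block, where 5.66% and 3.94% of all features were higher. The groups overlapped for YLR410W-B, whose 0% cultures read -0.19, 1.08 and 2.08. The exception was YOR192C-B, at -0.04 ± 0.90 and not called, with -0.57, 2.47 and -0.78 in the 6.5% cultures, against -0.70, -0.13 and 2.07 in the 0% cultures. In 6.5% cultures 1 and 3 it thus read far below the other Ty2 Gag-Pol frames, and in culture 2 it did not.

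Against 7.69% of all features higher, 3 of the 8 Ty2 Gag frames rose. These were YBL100W-A by 2.05 ± 0.51 and YDR261W-A by 2.01 ± 0.48, the Gag frames of the same elements as YBL100W-B and YDR261W-B, and YDR210W-A by 1.58 ± 0.35 (limma adjusted p from 0.0273 to 0.0359). YCL020W, at 1.69 ± 0.49, lay just outside the threshold (limma adjusted p = 0.0579). With the probe trend removed 0 of the 8 were called in limma, with 8 higher at an unadjusted p below 0.05, against 6 of 8 as deposited. Over all 6345 features, 935 were higher at that unadjusted p with the trend removed and 1064 as deposited. The median of these frames was 1.20 in that fit and 1.47 as deposited. Under the replicate block YDR210W-A kept its call, and YBL100W-A and YDR261W-A did not (limma adjusted p = 0.0584 and 0.0578).

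Ty1 frames rose as well. Of the 20 Ty1 Gag-Pol frames 13 rose, against 7.69% of all features higher. The median of the 20 was 1.45, against 2.25 in the 6 other Ty2 Gag-Pol frames, a difference that was not tested. YNL284C-B rose by 2.08 ± 0.29, with 2.14, 1.75 and 2.43 in the 6.5% cultures, against -0.23, 0.04 and 0.26 in the 0% cultures (limma adjusted p = 0.00915). YNL054W-B rose by 2.07 ± 0.41 and YJR029W by 1.99 ± 0.44. YMR050C, which contains YMR051C, rose by 1.90 ± 0.43, with 1.67, 1.84 and 1.58 in the 6.5% cultures, against 0.43, -1.23 and 0.17 in the 0% cultures. The other 9 that rose were YBL005W-B, YPR158C-D, YER138C, YLR227W-B, YDR098C-B, YML045W, YER160C, YBR012W-B and YHR214C-B, by 1.07 to 1.87. With the probe trend removed 12 of the 20 rose, 10 of them among the 13, against 5.66% of all features higher in that fit. Under the replicate block 8 of the 20 rose, against 3.94% of all features. There YDR098C-B, YML045W, YER160C, YBR012W-B and YHR214C-B lost their calls.

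Of the 18 other Ty1 Gag frames, 7 rose, against 7.69% of all features higher, and the median of the 18 was 1.48. YDR098C-A rose by 2.17 ± 0.38, YDR170W-A by 2.09 ± 0.45 and YGR161C-C by 2.08 ± 0.44, close to YMR051C in size (limma adjusted p from 0.0155 to 0.0254). YDR316W-A, YDR210C-C, YER137C-A and YER159C-A rose by 1.48 to 1.96. With the probe trend removed, YDR098C-A and YGR161C-C were called. Under the replicate block YDR210C-C and YER137C-A lost their calls, leaving 5 of 18, against 3.94% of all features higher in that fit. The lowest changes among the Ty1 Gag frames that were not called were 0.25 for YPR158C-C and 0.30 for YMR046C. YLR035C-A, a frame of 3468 bp whose family could not be told from its length, rose by 2.57 ± 0.53 (limma adjusted p = 0.0221), with 1.42, 2.80 and 2.96 in the 6.5% cultures, against 0.44, -0.92 and -0.07 in the 0% cultures. Of the Ty frames that were not called, YBR012W-A, at 1.72, and YCL020W had the largest changes, followed by YOL103W-B at 1.58.

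**Figure D3:**
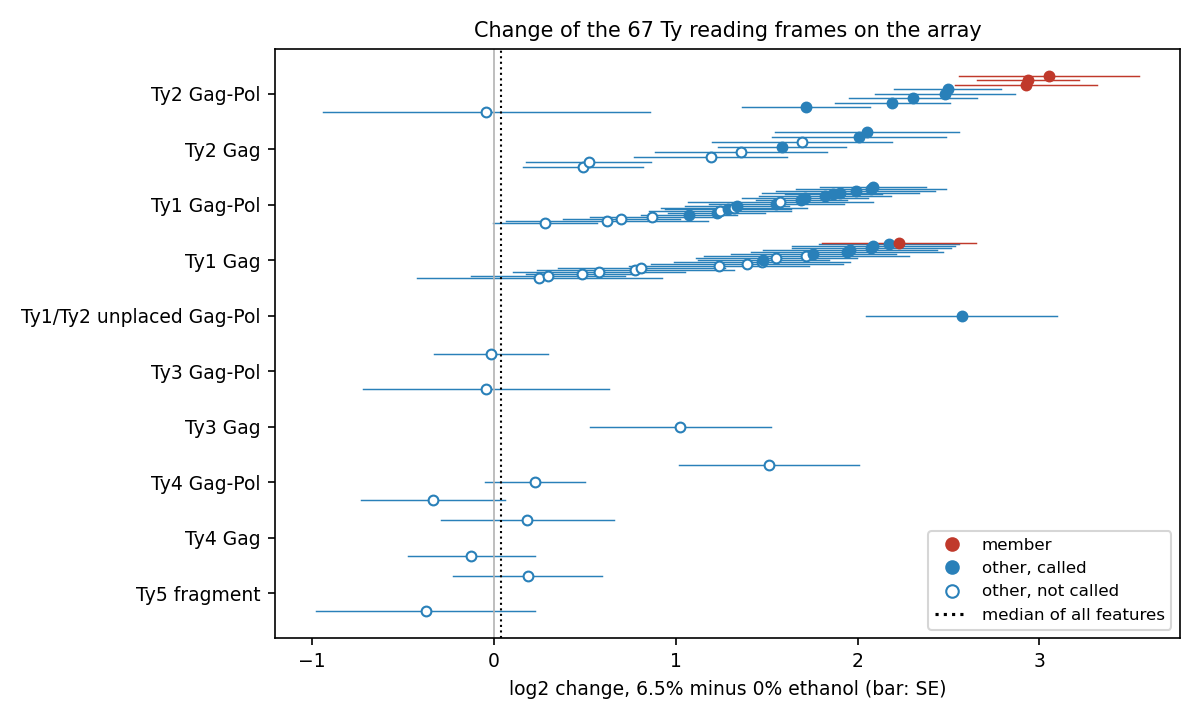
Log2 change, 6.5% minus 0% ethanol, with its SE (horizontal axis) for the 67 Ty reading frames, in rows by family and frame. Red points are the members, filled blue points other frames called in limma, open points frames not called, and the dotted line is the median of all features, at 0.04. The 3 Ty2 members lie farthest to the right, the Ty2 Gag-Pol frame YOR192C-B lies at -0.04, and the Ty3, Ty4 and Ty5 frames hold no called point.

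Frames of the rarer families were not called. Of the 10 Ty3, Ty4 and Ty5 frames, 0 rose and 0 fell in limma, against 7.69% and 10.4% of all features, and the median change was 0.08. With 10 frames, 0 calls is near those shares. Over all 6345 features, 1064 were higher and 1173 lower at an unadjusted p below 0.05, and of these 10 frames 1 was higher and 0 lower. That frame was YPL060C-A, a Ty4 Gag-Pol frame, at 1.51 ± 0.49 (limma adjusted p = 0.0780), with 0.77, 1.74 and 0.69 in the 6.5% cultures, against -1.87, -0.21 and 0.74 in the 0% cultures. The Ty3 Gag frame YGR109W-A was at 1.02 ± 0.50. The 3 lowest of all Ty frames were YCL074W, a Ty5 fragment annotated as a pseudogene, at -0.38 ± 0.60, and the Ty4 frames YHL009W-B at -0.33 ± 0.40 and YJL114W at -0.12 ± 0.35. On YCL074W the swapped 6.5% array read 1.92 and the others -1.34 and -1.85, so its 6.5% arrays lay far apart. On the 4 arrays that were not dye-swapped, YCL074W was called lower (-1.37, limma adjusted p = 0.0348). A difference in response between the families was not tested.

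Differences by dye can be given for the other Ty frames too, as a description only. They are parts of the same contrast, and these probes can bind the same RNA as those of the members. Of the 52 Ty1 and Ty2 frames that are not members, 45 had a positive difference both on the swapped arrays and on the others. So had 33.0% of all features, and 1 of the 10 Ty3, Ty4 and Ty5 frames. The 0% cultures also shared a pattern. Culture 2 was the lowest of the 0% cultures for 41 of these 52 frames and for 3 of the 4 members, against 31.7% of all features. In the Ty1 Gag frames other than YMR051C the medians of 0% cultures 1, 2 and 3 were 0.67, -1.02 and 0.24. The 0% pool holds RNA of these same cultures.

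Several elements had probes for both frames. Both frames were on the array for 7 Ty2 elements, and the Gag-Pol change was the larger in 6 of them, with a median excess of 0.95 log2 units. YDR261W-B exceeded YDR261W-A by 1.04 and YBL100W-B exceeded YBL100W-A by 0.88, and 4 of the 5 Ty2 elements without a member had the same order. In 12 Ty1 elements the Gag-Pol change was the larger in 5 and the smaller in 7 (median -0.12). YMR050C lay 0.32 below YMR051C. These differences were not tested, and where in the frames the probes lie is not given in the sources used here.

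**Figure D4:**
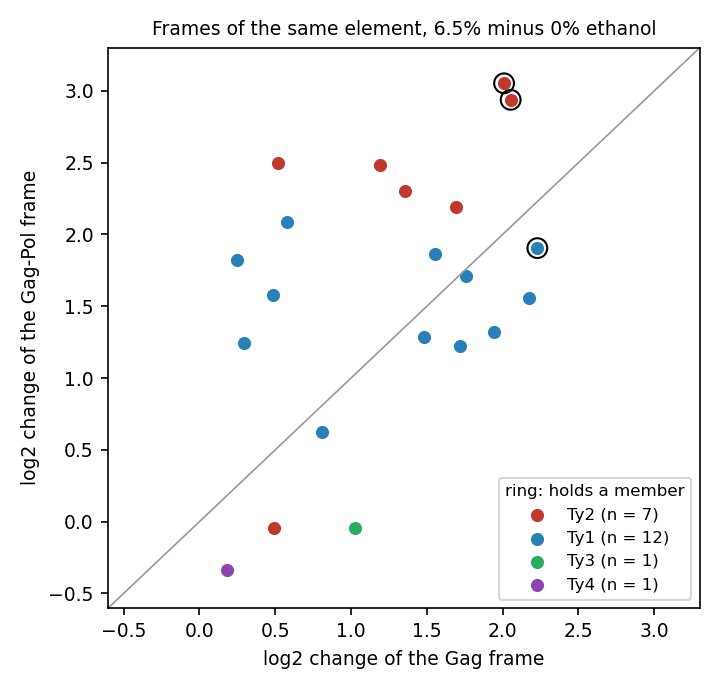
Log2 change of the Gag-Pol frame (vertical axis) against that of the Gag frame of the same element (horizontal axis), 6.5% minus 0% ethanol, for 21 elements with both frames on the array. The line marks equal change and rings mark elements that hold a member. Of the 7 Ty2 elements 6 lie above the line, and the 12 Ty1 elements lie on both sides.

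By Pearson's r over the 6 arrays with the mean of the 4 members, the most similar features were YBR012W-B, a Ty1 Gag-Pol frame (r = 0.996), COS1 (0.994), GID11 (0.993), TOS8 (0.993) and THI4, an enzyme of thiamine synthesis (0.992). These values describe arrays that fall into the 2 ethanol groups, so a feature that separates them cleanly scores high. The changes were 1.23 for YBR012W-B, 1.34 for COS1, 1.28 for GID11, 1.49 for TOS8 and 2.26 for THI4. Among the 50 most similar features 8 were Ty frames, YBR012W-B, YML045W, YHR214C-B, YPR158C-D, YFL002W-A, YCL019W, YGR161W-B and YLR227W-B, all of them Gag-Pol frames.

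Genes known to act on Ty elements were read from a list of 64 made from general knowledge of Ty1 biology, all measured. Of these 2 rose and 9 fell, against 7.69% and 10.4% of all features, and the median was -0.02. With the replicate number as a block 1 rose and 4 fell, against 3.94% and 5.63% of all features. With the probe trend removed 0 rose and 3 fell in limma, against 5.66% and 7.97% of all features in that fit. The 3 called were RAP1, RAD27 and RPC40. At an unadjusted p below 0.05 that fit had 3 higher and 12 lower of the 64, against 935 and 1073 of all 6345 features.

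Among activators of Ty transcription, STE12, the pheromone and filamentation factor that binds Ty1 together with Tec1, was at -0.35, -1.31 and -1.34 in the 6.5% cultures, against 0.23, -0.19 and -0.05 in the 0% cultures, and fell by 0.99 ± 0.26 (limma adjusted p = 0.0424). TEC1 itself was at -0.83 ± 0.37 and was not called (limma adjusted p = 0.160). MCM1, a factor of mating-type and cell cycle genes, fell by 1.26 ± 0.27, and RAP1, an activator of ribosomal protein and glycolytic genes, fell by 2.12 ± 0.29. GCN4, the activator of amino acid synthesis genes, was at 0.15 ± 0.25, and SPT3, the SAGA subunit needed for Ty transcription, at 0.13 ± 0.28. Neither was called. TEA1, a Ty1 enhancer activator picked out here after its value was seen, was at 2.37 ± 0.76 without a call (limma adjusted p = 0.0747). It read 1.20, 1.22 and 1.05 in the 6.5% cultures, against 0.24, -3.34 and -0.54 in the 0% cultures, and without 0% culture 2 its change was 1.37. Of the 11 SAGA and Swi/Snf subunits 0 were called in limma, against 7.69% of all features higher and 10.4% lower. At an unadjusted p below 0.05, 1 of the 11 was higher and 0 lower, against 1064 and 1173 of all 6345 features.

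KSS1, a MAP kinase of the filamentation pathway, rose by 1.14 ± 0.29, with 1.42, -0.57 and -0.77 in the 6.5% cultures, against -0.26, -1.37 and -1.70 in the 0% cultures, so that the groups overlapped. DHH1, a helicase of mRNA decapping, rose by 1.23 ± 0.24. SPT5, an elongation factor, fell by 1.18 ± 0.26, the decapping enzyme gene DCP2 by 1.55 ± 0.35, NAM7 of nonsense-mediated decay by 0.94 ± 0.24 and BUD22 of ribosome assembly by 1.01 ± 0.26. RAD27, a flap endonuclease that restricts Ty1, fell by 1.41 ± 0.26. RPC40, the subunit of RNA polymerases I and III to which Ty1 integrase binds, fell by 2.35 ± 0.32, with -2.56, -1.30 and -0.45 in the 6.5% cultures, against -0.32, 1.78 and 1.28 in the 0% cultures. The groups also overlapped for DCP2 and NAM7. Limma adjusted p-values of the genes in this paragraph were between 0.00857 and 0.0405. Under the replicate block STE12, KSS1, SPT5, DCP2, NAM7 and BUD22 were no longer called.

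**Figure D5:**
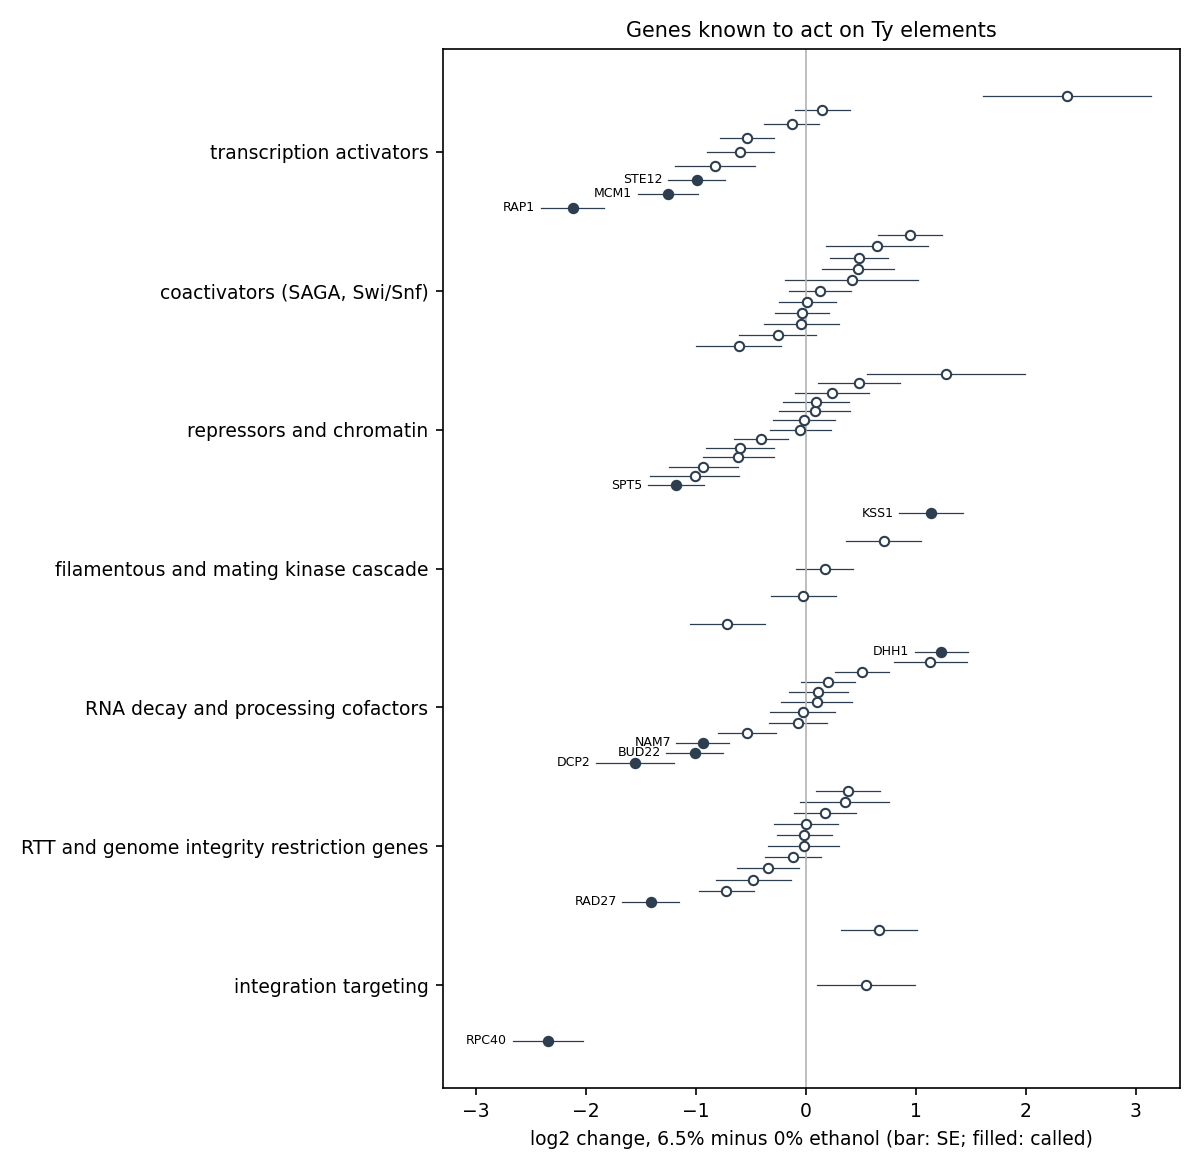
Log2 change, 6.5% minus 0% ethanol, with its SE (horizontal axis) for the 64 genes known to act on Ty elements, in rows by role. Filled points were called in limma and are named. Of the called genes 9 lie below 0 and 2, KSS1 and DHH1, above it.

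Genes next to the members in the S288C annotation did not all move with them. Ty insertion sites differ between laboratory strains, and a probe can bind RNA of other copies. These genes need not lie beside the elements whose RNA was read in W303-1A. The nearest 2 measured genes on each side that are not Ty frames, chosen for display after the members' values were known, gave 16 neighbours, of which 3 rose, 1 fell and 12 were not called, where 7.69% of all features were higher and 10.4% lower. Of these 4 calls ECM21 alone kept its call with the replicate block, and MRH1 alone with the probe trend removed. ECM21 and SFT2 beside YBL100W-B rose by 1.41 ± 0.26 and 1.07 ± 0.27. LYS14, the lysine pathway activator beside YDR034C-D, rose by 1.03 ± 0.28, whereas MRH1 on the same side fell by 1.32 ± 0.30 (limma adjusted p from 0.0171 to 0.0489 for these 4). Beside YMR051C, the ribosome assembly gene ERB1 was at -1.84 ± 0.56 without a call (limma adjusted p = 0.0652), and the other neighbours lay between 0.11 and 0.62. Those of YDR261W-B lay between 0.05 (SWM1) and 0.99 (YDR262W), also without a call.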

How the data were processed

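The authors deposited 1 table of log2 ratios for 6368 probes on 6 arrays. The sources used here give no scanner, background correction, normalization or ratio direction. From the values, ratios are limited at 100-fold (log2 of 6.64). No intensity was used, so signal over background is unknown, and the number of arrays limits precision.

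Swapped arrays were multiplied by -1. The platform annotation named 1 gene for 5673 probes, all found in the RefSeq R64 table, and none for 695. Probes of the 23 genes with several were averaged, leaving 6345 features. The fit was limma 3.58.1 in R 4.3.3 (lmFit, eBayes) on all 6 arrays with ethanol and dye terms (3 residual degrees of freedom). Two-sided p-values were Benjamini-Hochberg adjusted over all features and called below 0.05. The procedure was also run on simulated data with errors drawn independently for each probe and array. RNA shared between Ty probes was not part of that simulation. The trend removed in the alternative fit was a loess curve (span 0.3) along the probe number.

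Members and gene lists were chosen with earlier results of these data known. Named genes were the members, all called Ty frames, the 3 highest and 3 lowest Ty frames not called, called genes of the list of Ty factors with TEC1, STE12, GCN4 and SPT3, and the 5 features most like the members. Families other than Ty1 and Ty2 were assigned from general knowledge, as was that of YHR214C-B.

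Deviations from the group means correlated between same-numbered cultures across features (r = 0.70, 0.48 and 0.43 for cultures 1, 2 and 3), so the number was used as a block in an alternative fit. Number 1 is also the swapped array, and the difference between cultures 2 and 3, which the dye does not touch, correlated at -0.04 between the groups.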

Additional observations from a re-analysis of the deposited data

How the results depend on the processing

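Across 17 alternative fits the change of YDR261W-B lay between 2.35 and 3.53 and that of YBL100W-B between 2.44 and 3.10. That of YDR034C-D lay between 2.56 and 3.33 and that of YMR051C between 1.61 and 2.68. All were positive, but these are refits of the contrast that chose the members and are a description only. Fits such as those without the dye term or with the replicate block return the main estimates exactly, so the 17 are not separate checks. With 1 array left out the ranges were 2.45 to 3.53, 2.80 to 3.10, 2.60 to 3.33 and 1.78 to 2.68. Scaling to equal spread gave 2.35, 2.44 and 1.61 for YDR261W-B, YBL100W-B and YMR051C, and removing the probe trend gave 2.49 for YBL100W-B. The counts of calls were far less steady. Features called higher and lower numbered 488 and 662, but 166 and 318 after quantile normalization, 104 and 207 at equal spread, 37 and 41 without the dye term, 250 and 357 with the replicate block, and 1283 and 1259 for the 6.5% arrays against the pool alone. With 1 array left out they were 2 to 565 and 0 to 688. Other Ty frames called higher numbered 29, but 4 after quantile normalization, 2 at equal spread, 2 without the dye term and 50 against the pool alone, with 20 under the replicate block and 0 to 32 with 1 array left out. Lower calls among them were 0, or 1 on the arrays that were not swapped (0 to 1 with 1 array left out). Of the Ty factors 2 were higher and 9 lower. Higher calls were 0 after quantile normalization, at equal spread, with the trend removed and without the dye term, 1 with the replicate block and on the arrays not swapped, 7 against the pool alone, and 0 to 2 with 1 array left out. Lower calls were 2 at equal spread, 3 with the trend removed, 0 without the dye term, 4 with the replicate block, and 0 to 8 with 1 array left out. With either swapped array left out the dye term takes up the other, so those fits equal the fit to the 4 arrays not swapped. Some changes without a call turned sign. YJL114W was at 0.28 on the arrays not swapped and between -0.41 and 0.28 with 1 array left out. YHL009W-B was at 0.017 against the pool alone and between -0.63 and 0.068 with 1 array left out, and YCL074W at 0.16 and between -1.37 and 0.053. GCN4 was at -0.12 with the trend removed, and SPT3 at -0.18 in that fit and between -0.062 and 0.37 with 1 array left out. The causes were not tested.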
